A study of Mus musculus with 6 samples.

Results

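Growth hormone reaches the liver through its receptor, signals through the transcription factor STAT5 and drives the output of insulin-like growth factor 1. The 9 genes described here are Ghr and Prlr, the receptors for growth hormone and prolactin, Stat5a and Stat5b, Igf1 and Igfals, the feedback inhibitors Socs2 and Cish, and the repressor Bcl6. They were chosen by name as the core of this pathway, from 23412 genes in the count table, and all 9 passed the filter on low counts that 12626 genes passed. RNA sequencing was done on 6 liver libraries from C57BL/6J mice, an inbred laboratory strain, labelled as 8 weeks old. Every mouse had eaten a high-fat diet for 4 weeks. The treated group, HFD_Lira3d, then had liraglutide under the skin at 300 µg/kg for 3 days, and the control group, HFD_PBS3d, is labelled PBS (phosphate-buffered saline), with 3 libraries in each. Liraglutide activates the receptor for the gut hormone glucagon-like peptide 1, and it is known to lower food intake. Food intake is not among the data analysed here, and its part in any difference was not tested.

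When growth hormone binds GHR, the kinase JAK2 phosphorylates STAT5, which moves to the nucleus and switches on Igf1, Igfals, Socs2 and Cish in hepatocytes. SOCS2 and CIS, the product of Cish, then damp the signal. In rodents the pituitary releases growth hormone in pulses in males and more evenly in females, which gives the liver its sex-biased genes, and BCL6 represses many female-biased ones in male mouse liver. In fasting, the liver is known to become resistant to growth hormone and to make less insulin-like growth factor 1.

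Libraries are named by group and by the number in their column, Lira161, Lira162 and Lira164 against PBS155, PBS157 and PBS158. They held 20888991 to 27007182 counts each. The labels do not say whether the libraries of a group came from separate mice, so the p-values cover the spread among libraries only, and part of that spread may be technical. Of 8 tested hepatocyte markers 1 was higher (Hnf4a) and 1 lower (Serpina1c), with 0 to 3 higher and 0 to 1 lower when a library was left out, and albumin (Alb) lay between 41040 and 76530 CPM (counts per 1000000, scaled by TMM), but Ass1, a urea cycle gene of hepatocytes, was listed at no more than 4 counts. The globin genes Hba-a1, Hba-a2, Hbb-b1 and Hbb-b2 had 0 counts in all libraries. Of 8 Kupffer cell and macrophage markers none passed the test between groups (0 at an unadjusted p below 0.05 in edgeR, 0 in DESeq2 and limma-voom), with 1 higher without PBS155, and their summed level ran from 195 to 319 CPM under liraglutide and from 86.5 to 351 under PBS. Endothelial markers summed to 172 to 272 against 101 to 192 CPM, with all 7 estimates above 0 (median log2 fold change 0.74) and 1, Clec4g, higher in edgeR. Of these 7, 3 had an unadjusted p below 0.05 and 2 were called in DESeq2; 5 were higher without PBS155, and 0 without Lira161, Lira162, PBS157 or PBS158. Cholangiocyte markers summed to 26.6 to 28.6 against 42.0 to 50.9 CPM, mostly Spp1, which was lower, and erythroid markers to 17.7 to 39.8 against 77.3 to 91.0 CPM, nearly all of it Alas2, also lower but not called without Lira164 or any single PBS library. The part of these cell types in the differences below was not tested. The Y-linked gene Ddx3y was at 86.3 to 128 CPM, while Xist, transcribed from the inactive X chromosome, did not exceed 0.30 CPM in any library.

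Ghr was the only one of the 9 genes called lower with liraglutide in edgeR, and it was 1.92-fold lower than under PBS. Igf1 and Igfals were lower in every liraglutide library than in every PBS library without passing the test. By edgeR's quasi-likelihood test, with a threshold of 0.05 on the Benjamini-Hochberg adjusted p, 1107 of the 12626 tested genes (8.77%) changed, 4.69% lower and 4.08% higher. That number was 462 without Lira161, 393 without Lira162, 653 without PBS157 and 414 without PBS158. Among the 9 genes 1 was lower and none was higher (0 higher also at an unadjusted p below 0.05, in DESeq2 and in limma-voom), which is a share near the background. The 2 groups stood apart, with all liraglutide libraries below all PBS libraries, for 3 of the 9 genes, against 16.4% of all genes tested. The median log2 fold change of the 9 genes was -0.44, and that of all tested genes 0.011. DESeq2 called 3 of the 9 genes (Ghr, Igf1 and Igfals) and limma-voom called 1, and leaving out 1 library gave between 0 and 3. In the whole table DESeq2 called 1632 of 16949 genes and limma-voom 1136 of 12626. The count of 3 with a library left out came without Lira164, where 1496 of 12793 genes were called.

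**Figure D1:**
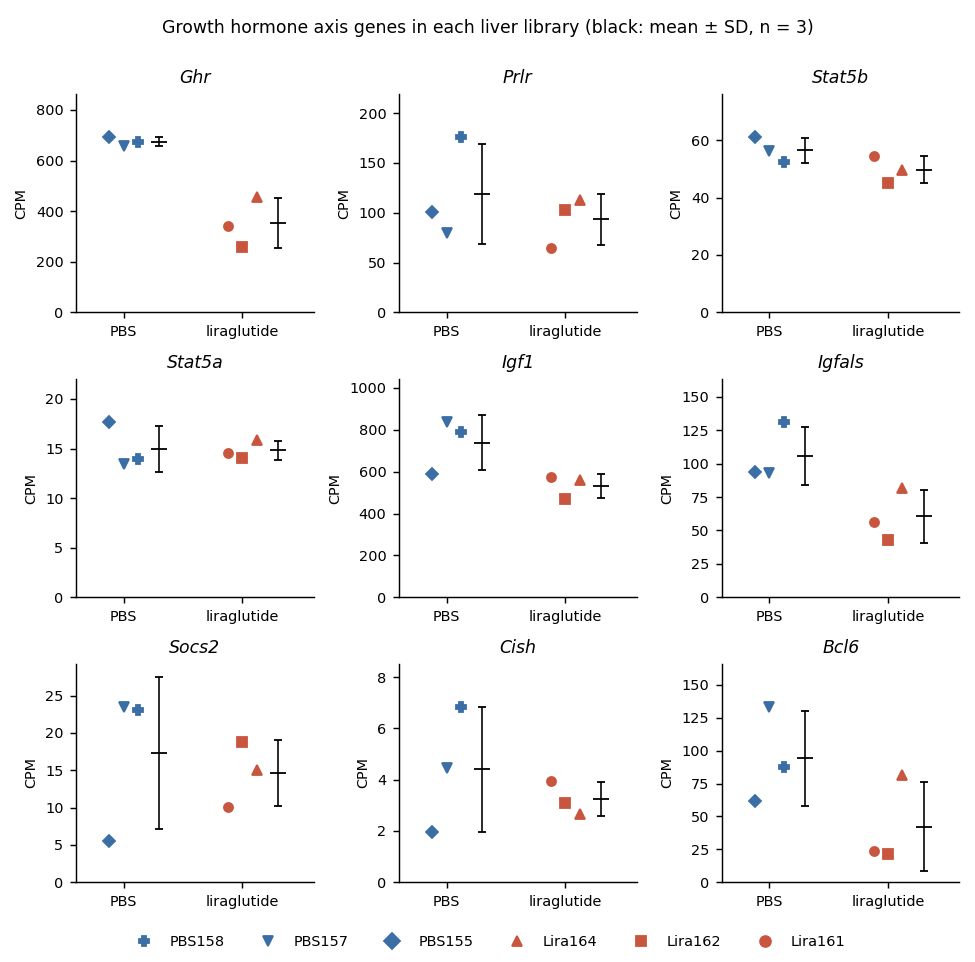
Level of each of the 9 genes (CPM, linear axes from 0) in the 3 PBS libraries (blue) and 3 liraglutide libraries (red), with the mean and SD of each group in black. Ghr, Igf1 and Igfals are the panels in which the groups do not overlap, and PBS155 is the lowest library for Socs2 and Cish.

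Ghr encodes the growth hormone receptor (chromosome 15, 3317760 to 3583492, minus strand, GRCm38). It was at 342, 258 and 456 CPM in Lira161, Lira162 and Lira164, and at 691, 658 and 675 CPM in PBS155, PBS157 and PBS158. The PBS libraries lay close together and every liraglutide library was below them, with Lira162 the lowest. Group means were 352 ± 99.2 and 675 ± 16.5 CPM (SD, n = 3), a coefficient of variation of 28.2% under liraglutide and 2.45% under PBS. The log2 fold change was -0.94 ± 0.19 (SE; 95% confidence interval -1.36 to -0.52), with an edgeR adjusted p of 0.0183. Without Lira161 or PBS158 the adjusted p was 0.0754 and 0.0642, at log2 fold changes of -0.92 and -0.94. In whole liver, less Ghr RNA per cell and fewer cells that express it cannot be told apart.

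Prlr, the prolactin receptor gene (chromosome 15, 10177238 to 10349180, plus strand), uses the same STAT5 route and is known to be higher in female than in male mouse liver. It was at 64.8, 102 and 113 CPM in Lira161, Lira162 and Lira164 and at 101, 79.6 and 176 CPM in PBS155, PBS157 and PBS158. The groups overlapped, and PBS158 was the highest library. The log2 fold change was -0.35 ± 0.35 (95% confidence interval -1.20 to 0.51, edgeR adjusted p = 0.586), an interval that holds a fall to 0.435 of the PBS level and a rise to 1.42 times it. Without PBS158 the estimate was 0.045. The hormones of these receptors, encoded by Gh and Prl, had 0 counts in every library, which allows up to 3 counts, or 0.144 CPM (without TMM) in the smallest library, and covers counting error only.

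Stat5b and Stat5a encode the closely related STAT5 proteins and lie next to each other on chromosome 11 (100780731 to 100850724, minus strand, and 100859351 to 100885169, plus strand). Stat5b, the form that carries most of the growth hormone signal in mouse liver, was at 54.5, 45.2 and 49.7 CPM under liraglutide (Lira161, Lira162, Lira164) and at 60.9, 56.2 and 52.4 under PBS (PBS155, PBS157, PBS158). The ranges touched, Lira161 being above PBS158. Its log2 fold change was -0.18 ± 0.10 (95% confidence interval -0.42 to 0.050, edgeR adjusted p = 0.305). Stat5a was at 14.6, 14.1 and 15.9 CPM against 17.6, 13.4 and 13.9 in the same order, with PBS155 the highest and PBS157 the lowest of all. Its log2 fold change was -0.016 ± 0.13 (95% confidence interval -0.32 to 0.29, edgeR adjusted p = 0.958). With library totals as the scaling it was 0.033, while the median of all genes moved from 0.011 to 0.061. These were the narrowest intervals of the 9 genes, and for Stat5a the interval runs from 0.803 to 1.22 times the PBS level. Of the 50-base windows in Stat5a protein-coding transcripts, 14.7% were identical in Stat5b, and how reads from such stretches were counted is unknown here. Whether counting used strand is unknown here, and 72 bases of Stat5a exons overlap Stat3 on the other strand.

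Igf1 (chromosome 10, 87858265 to 87937042, plus strand) encodes insulin-like growth factor 1, the hormone through which the liver carries much of the growth signal into the blood. Its level was 574, 467 and 558 CPM in Lira161, Lira162 and Lira164, and 588, 835 and 789 CPM in PBS155, PBS157 and PBS158. All liraglutide libraries were below all PBS libraries, although PBS155 was only just above Lira161. The log2 fold change was -0.47 ± 0.15 (95% confidence interval -0.82 to -0.12), and the edgeR adjusted p of 0.0927 did not pass. It passed in DESeq2 (adjusted p = 0.0299) and without PBS155 (-0.62, adjusted p = 0.0301), and leaving out each library in turn gave adjusted p from 0.0301 to 0.281.

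Igfals (chromosome 17, 24865997 to 24882010, plus strand) encodes the acid-labile subunit, which holds insulin-like growth factor 1 and its binding protein in a long-lived complex in the blood. It was at 56.6, 43.1 and 82.0 CPM in Lira161, Lira162 and Lira164 and at 93.5, 92.7 and 131 CPM in PBS155, PBS157 and PBS158. As for Ghr, Lira162 was the lowest library and Lira164 the nearest to the PBS libraries. The log2 fold change was -0.80 ± 0.25 (95% confidence interval -1.40 to -0.20, edgeR adjusted p = 0.101). It passed in DESeq2 (adjusted p = 0.00526) and in edgeR without Lira164 (-1.10, adjusted p = 0.0104), with adjusted p from 0.0104 to 0.242 over the libraries left out.

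The binding proteins that carry insulin-like growth factor 1 moved in both directions. Of 7 tested binding protein genes 2 rose and 1 fell, against 4.08% and 4.69% of all tested genes, and the median of their log2 fold changes was 0.066. Igfbp3, the main partner of the acid-labile subunit in blood, fell from 13.9, 14.3 and 11.6 CPM in PBS155, PBS157 and PBS158 to 8.1, 8.5 and 7.4 in Lira161, Lira162 and Lira164 (log2 fold change -0.73 ± 0.13, edgeR adjusted p = 0.0132). Igfbp3 passed in all 13 alternative fits, with an adjusted p of at most 0.0489. Igfbp2 and Igfbp1, whose levels are known to rise in fasting, rose by 1.00 ± 0.20 and 2.70 ± 0.54 (edgeR adjusted p = 0.0192 and 0.0420). Igfbp2 did not pass when Lira161, Lira162 or PBS158 was left out (highest adjusted p 0.0801), and Igfbp1 held it among the left-out libraries only without Lira164 (otherwise up to 0.132). The number of binding protein genes that rose was thus 0 without Lira161, Lira162 or PBS158, and 1 without PBS155 or PBS157 or without the low-count filter. Without Lira162, 2 were lower.

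**Figure D2:**
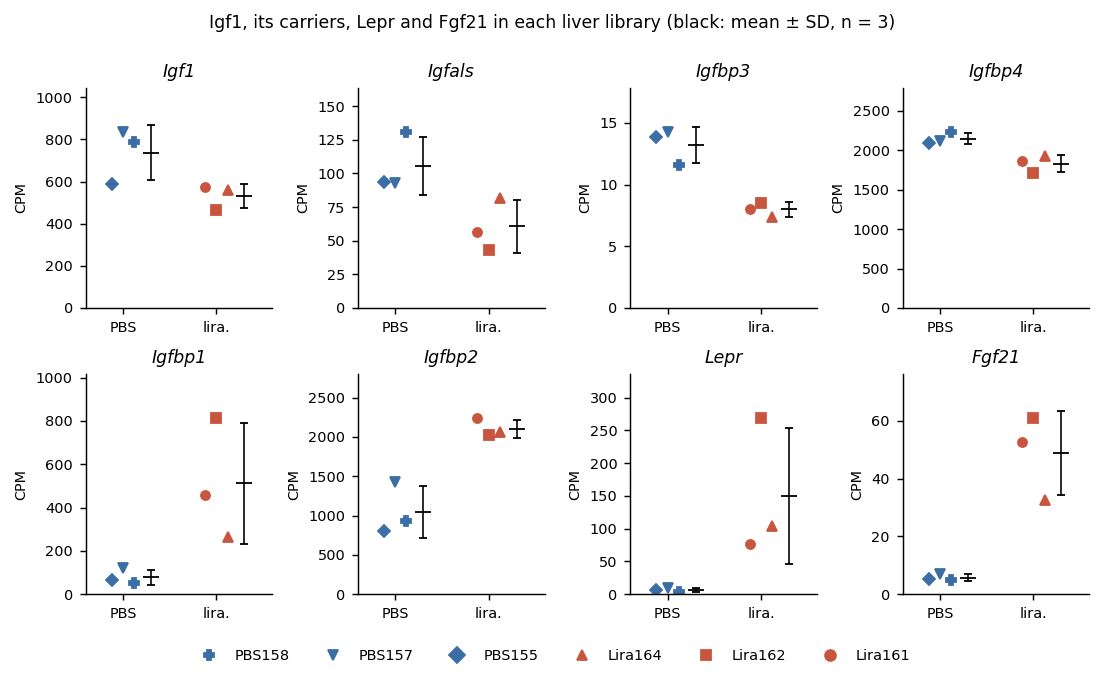
Level (CPM, linear axes from 0) of Igf1, Igfals, 4 binding protein genes, Lepr and Fgf21 in the 3 PBS libraries (blue) and 3 liraglutide libraries (red), mean and SD in black. Igfbp3 lies at 7.4 to 8.5 CPM under liraglutide and 11.6 to 14.3 under PBS, while Igfbp1 and Igfbp2 lie higher under liraglutide.

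Of 8 genes for other ligands, receptors and proteases of this hormone system, 3 passed the low-count filter and none passed the test (1 at an unadjusted p below 0.05 in edgeR, 0 in DESeq2 and limma-voom; median log2 fold change -0.20). Insr, the insulin receptor gene, was at 171, 168 and 174 CPM under liraglutide and 204, 193 and 193 under PBS (-0.21 ± 0.090, edgeR adjusted p = 0.187). Igf2r, a receptor that clears insulin-like growth factor 2, was at 46.1 to 54.4 against 50.5 to 67.6 CPM (adjusted p = 0.351).

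Socs2 and Cish are direct STAT5 targets whose RNA is known to rise soon after a growth hormone pulse. Socs2 (chromosome 10, 95385362 to 95417180, minus strand) was at 10.03, 18.8 and 15.0 CPM in Lira161, Lira162 and Lira164, and at 5.53, 23.4 and 23.0 CPM in PBS155, PBS157 and PBS158. PBS155 was the lowest of all 6 libraries while PBS157 and PBS158 were the highest. The log2 fold change was -0.24 ± 0.59 (95% confidence interval -1.72 to 1.25, edgeR adjusted p = 0.839). It was -0.68 without PBS155, 0.048 without PBS157 and 0.024 without PBS158. Cish (chromosome 9, 107296026 to 107302784, plus strand) had 64 to 82 counts per library under liraglutide and 53 to 142 under PBS, and was at 3.95, 3.09 and 2.67 CPM against 1.94, 4.45 and 6.82. Again PBS155 was the lowest library and PBS158 the highest. Its log2 fold change was -0.43 ± 0.415 (95% confidence interval -1.39 to 0.52, edgeR adjusted p = 0.556), -0.82 without PBS155 and 0.022 without PBS158. The coefficient of variation in the PBS group was 59.0% for Socs2 and 55.4% for Cish, against 2.45% for Ghr. PBS155 also had the highest summed level of macrophage markers, 351 CPM against 141 in PBS157 and 86.5 in PBS158, and the part of this in Socs2 and Cish was not tested. Antisense exons of Gm17041 overlap 479 bases of Cish, so without a known strand setting its counts are uncertain.

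Bcl6 (chromosome 16, 23965052 to 23988852, minus strand) encodes a repressor that binds DNA motifs much like those of STAT5 and whose gene growth hormone is known to lower. It was at 24.1, 21.7 and 81.1 CPM in Lira161, Lira162 and Lira164, and at 62.1, 133 and 87.3 CPM in PBS155, PBS157 and PBS158. Lira161 and Lira162 were well below every PBS library, whereas Lira164 lay within the PBS range. The log2 fold change was the most negative of the 9 genes, -1.15, with the widest error (SE 0.64, 95% confidence interval -2.79 to 0.48, edgeR adjusted p = 0.334). Without Lira164 it was -2.05 (adjusted p = 0.0271), and without PBS157 it was -0.82 (adjusted p = 0.5996). Lira164 was also the liraglutide library nearest to the PBS libraries for Ghr and Igfals, but not for Igf1 (558 CPM, against 574 in Lira161).

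Sequences around the start sites of Bcl6, Cish and Igfals are shown because they hold the STAT5-type motif TTCNNNGAA, a palindrome that reads the same on both strands and that BCL6 can also bind. Windows from 250 bases before to 50 after each start site were taken from RefSeq (GRCm38.p6), 16 windows for 8 of the 9 genes. A match was present in 6 of these 16 windows, against 8.30% of all 32851 windows of 300 bases. They belong to Bcl6, Cish, Igfals and Prlr, and some are windows of the same gene. The 9 genes were chosen as the core of the STAT5 pathway and include known STAT5 targets, so this contrast adds no support. In the windows of Ghr, Igf1, Stat5a and Stat5b these letters were not found, which says nothing about sites elsewhere. One Bcl6 window held 3 matches, as did 0.0335% of all windows (11), and the Cish window held 2, as did 0.457% with at least 2. Matches are in capitals, each sequence reads 5′ to 3′ on the strand of its gene, and a match is a description of letters, not a shown binding site.
Bcl6, internal start site, chr16:23981323-23981491, minus strand: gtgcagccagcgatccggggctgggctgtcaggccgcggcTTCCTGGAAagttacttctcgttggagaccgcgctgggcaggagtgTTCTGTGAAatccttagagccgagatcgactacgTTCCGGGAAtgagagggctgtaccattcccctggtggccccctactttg
Bcl6, outer start site, chr16:23988922-23989010, minus strand: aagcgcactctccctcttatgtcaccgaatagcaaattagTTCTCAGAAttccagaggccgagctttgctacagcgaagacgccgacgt
Cish, across the start site, chr9:107296654-107296683, plus strand: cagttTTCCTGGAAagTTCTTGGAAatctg
Igfals, before a start site, chr17:24878133-24878221, plus strand: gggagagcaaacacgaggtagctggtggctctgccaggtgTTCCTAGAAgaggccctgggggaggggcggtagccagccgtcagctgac
Counted from 1 at the start site, the matches in the first Bcl6 stretch begin at -168, -122 and -88, and those in Cish at 1 and 12.

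**Figure D3:**
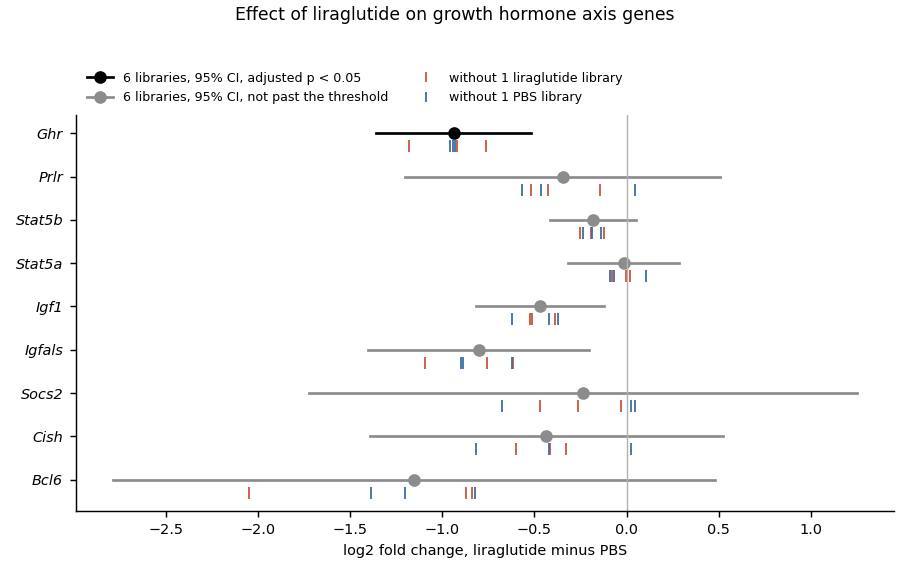
Log2 fold change of each gene, liraglutide minus PBS, from edgeR with all 6 libraries (dot, with its 95% confidence interval) and with 1 library left out (ticks, coloured by the group of the left-out library). Ghr, in black, is the gene past the threshold, and all dots lie below 0 (that of Stat5a is above it with library totals as the scaling and that of Socs2 in limma-voom), while ticks of Prlr, Stat5a, Socs2 and Cish cross it.

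All 9 point estimates were below 0, as were 6112 of the 12626 tested genes. This is a count of estimates, not of changes, since that of Stat5a lay near 0 (above it without Lira162 or PBS155, and with library totals, which raised the median of all genes as well), that of Socs2 turned to 0.059 in limma-voom, and those of Prlr, Socs2 and Cish turned without PBS158. Profiles over the 6 libraries were compared as log2 CPM centred on each gene's mean. Among the 9 genes the root mean square difference was smallest for Stat5a and Stat5b, at 0.145, followed by Ghr and Igfals at 0.183. It was largest for Socs2 and Bcl6, at 1.03. This difference is not scaled to a gene's spread, so genes that vary little come out close whether or not they vary together. Among 9258 genes with a mean of at least 5 CPM, the profiles most like that of Ghr over the 6 libraries were those of Hes6 (root mean square difference 0.059), AI182371 (0.072) and Slc25a23 (0.075). All 3 were called lower, with log2 fold changes of -0.95, -0.97 and -0.99 and edgeR adjusted p of 0.0305, 0.0090 and 0.0197. Genes picked for a profile like that of Ghr in these same libraries had to share its fold change, so their calls add no support. AI182371 passed in all 13 alternatives; Hes6 did not pass when Lira161 or any single PBS library was left out (highest adjusted p 0.108), and Slc25a23 not without Lira161, PBS155 or PBS158 (up to 0.0770).

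Compared per kilobase of exon, with each library scaled to a total of 1000000 over genes of known length, Igf1 was at 134 to 221 and Ghr at 81.1 to 215 over the 6 libraries. Their order depended on the library, since Ghr was above Igf1 in PBS155 (215 against 167) and below it in the others. Igfals was at 38.7 to 105. Bcl6 was at 9.19 to 52.0, Stat5b at 23.2 to 30.9 and Prlr at 11.2 to 29.1 on the same scale. Stat5a, at 4.93 to 6.95, Socs2, at 1.63 to 6.44, and Cish, at 0.851 to 2.70, were the lowest. Of the 8 pairs of neighbours in the order of the means of all 6 libraries, which pool both groups, 7 overlapped over the libraries, and the gap lay between Prlr and Stat5a. Stat5b was 4.02 to 5.40 times as abundant as Stat5a per kilobase in each library. The length used, the union of all annotated exons, is 7133 bases for Stat5a and 5539 for Stat5b. Their protein-coding transcripts held 4149 and 5488 distinct 50-base windows. A shorter length for Stat5a would raise its level, so this ratio and the gap below Prlr depend on the length used. Per kilobase, group means of Ghr and Igf1 were 198 ± 14.2 and 197 ± 27.5 under PBS and 110 ± 34.3 and 151 ± 15.7 under liraglutide (SD, n = 3).

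**Figure D4:**
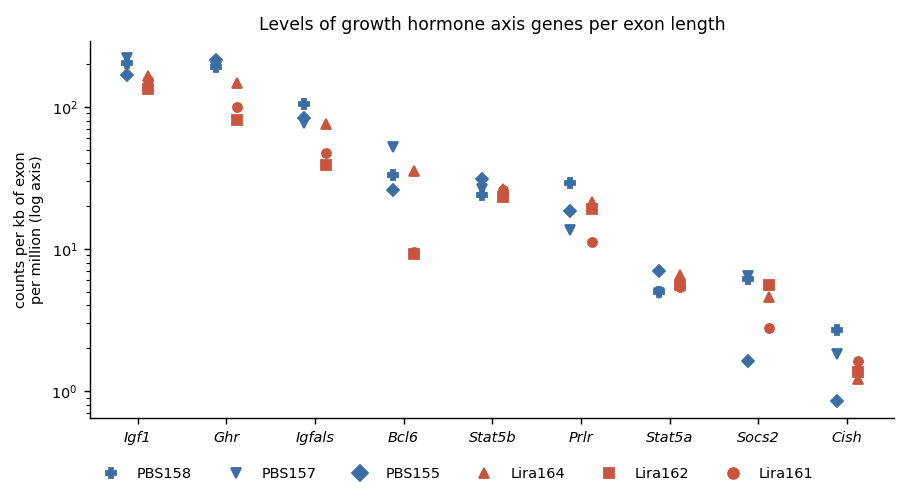
Level of each of the 9 genes per kilobase of exon on that scale (log axis) in the 3 PBS libraries (blue) and 3 liraglutide libraries (red), ordered by the mean of all 6. Igf1 and Ghr lie at the top, Cish at the bottom at 0.851 to 2.70, and no library of Prlr reaches down to those of Stat5a.

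The genes for kinases, adaptors, phosphatases and SOCS proteins that act with the receptor showed no called change in edgeR with all 6 libraries. Of 25 such genes, all tested, none rose or fell in edgeR (2 higher and 5 lower at an unadjusted p below 0.05; DESeq2 called 2 lower and limma-voom 1), with a median log2 fold change of -0.12. Pik3r1, a regulatory subunit of phosphoinositide kinase, was at 58.5, 53.3 and 79.6 CPM under liraglutide and 118, 81.7 and 121 under PBS (-0.74 ± 0.20, edgeR adjusted p = 0.0564). Its groups did not overlap, and it passed in DESeq2 (adjusted p = 0.00260), in limma-voom (0.0463) and in edgeR without Lira164 (0.00983) or PBS157 (0.0211). Without Lira164, 5 of the 25 genes were lower, and without PBS157, 1 was lower and 1 higher. Jak2, the kinase bound to the receptor, was chosen after its values were seen and was at 17.0 to 22.5 against 21.2 to 24.95 CPM (adjusted p = 0.338).

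Of 12 transcription factors that act with STAT5 or under it in liver, 2 rose and none fell (0 lower at an unadjusted p below 0.05, in DESeq2 and in limma-voom), with a median log2 fold change of 0.12. Among all tested genes 4.08% rose and 4.69% fell. Hnf4a, a master factor of hepatocytes, rose from 718, 687 and 848 to 1171, 1026 and 1046 CPM (0.53 ± 0.13, edgeR adjusted p = 0.0338). Tox, a nuclear factor with female bias in mouse liver, rose from 5.8 to 7.1 CPM to a range of 8.2 to 11.04 (0.64 ± 0.16, adjusted p = 0.0404). Hnf4a did not pass when Lira161, Lira162, PBS155 or PBS157 was left out (highest adjusted p 0.122) and Tox without Lira162, Lira164, PBS155, PBS157 or PBS158 (up to 0.160), and the count of 2 became 1 without Lira161, Lira162 or PBS158 and 0 without PBS155 or PBS157. Without Lira164, 3 were higher and 1 lower. Cux2, a female-specific factor in mouse liver, was singled out after its values were seen: it was at 1.6, 7.9 and 1.7 CPM under liraglutide and 0.2 to 0.5 under PBS (3.26 ± 0.80, adjusted p = 0.0535; 0.0315 to 0.168 over left-out libraries and 4.13e-06 in DESeq2). With 13, 5 and 10 counts in PBS155, PBS157 and PBS158, its PBS libraries alone did not bring it past the low-count filter. It was thus tested in part because of its level under liraglutide.

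Male-biased genes, which depend in mouse liver on pulses of growth hormone and on STAT5b, were lower where they changed. Of 29 tested, 3 fell and none rose (0 higher at an unadjusted p below 0.05, in DESeq2 and in limma-voom), the median log2 fold change was -0.65, and 28 of the 29 estimates were below 0. Among all tested genes 4.69% fell, and 6112 of 12626 estimates were below 0. The 28 are estimates, not changes, and they include near-identical Mup genes. All liraglutide libraries lay below all PBS libraries for 11 of the 29, against 16.4% of all genes tested. The mean log2 CPM of the list relative to the PBS mean was -0.42, -1.974 and -0.937 in Lira161, Lira162 and Lira164. In PBS155, PBS157 and PBS158 it was -0.189, 0.414 and -0.225. Ugt2b1, a glucuronosyltransferase gene, fell from 481, 552 and 515 CPM in PBS155, PBS157 and PBS158 to 260, 148 and 255 in Lira161, Lira162 and Lira164 (-1.22 ± 0.21, edgeR adjusted p = 0.0127). It kept its call in all 13 alternatives. Selenbp2, a selenium-binding protein gene, fell from 335 to 371 CPM to a range of 12.6 to 50.1 (-3.45 ± 0.51, adjusted p = 0.0190), and Cyp2u1, a cytochrome P450 gene, from 19.8 to 42.8 CPM to a range of 8.1 to 13.0 (-1.53 ± 0.34, adjusted p = 0.0437). Lira162 was the lowest liraglutide library of Ugt2b1 and Selenbp2, as it was for Ghr, while Lira161 was the lowest for Cyp2u1. The steroid dehydrogenase gene Hsd3b5, singled out after its values were seen, was at 12.4, 1.3 and 103 CPM against 248, 370 and 294, so that its groups were apart, but the spread under liraglutide left an edgeR adjusted p of 0.3002 (0.0429 in limma-voom).

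The count of 3 male-biased genes became 8 in DESeq2, 5 in limma-voom, without the low-count filter or without Lira164, and 1 without PBS158. Selenbp2 did not pass when Lira161 or any single PBS library was left out (highest adjusted p 0.0716), and Cyp2u1 without Lira161, Lira162 or PBS158, with library totals or without the filter (up to 0.163). Several of these genes, the Mup family above all, have near-identical copies, so their values are uncertain. The list was written from general knowledge with earlier results of these data known.

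**Figure D5:**
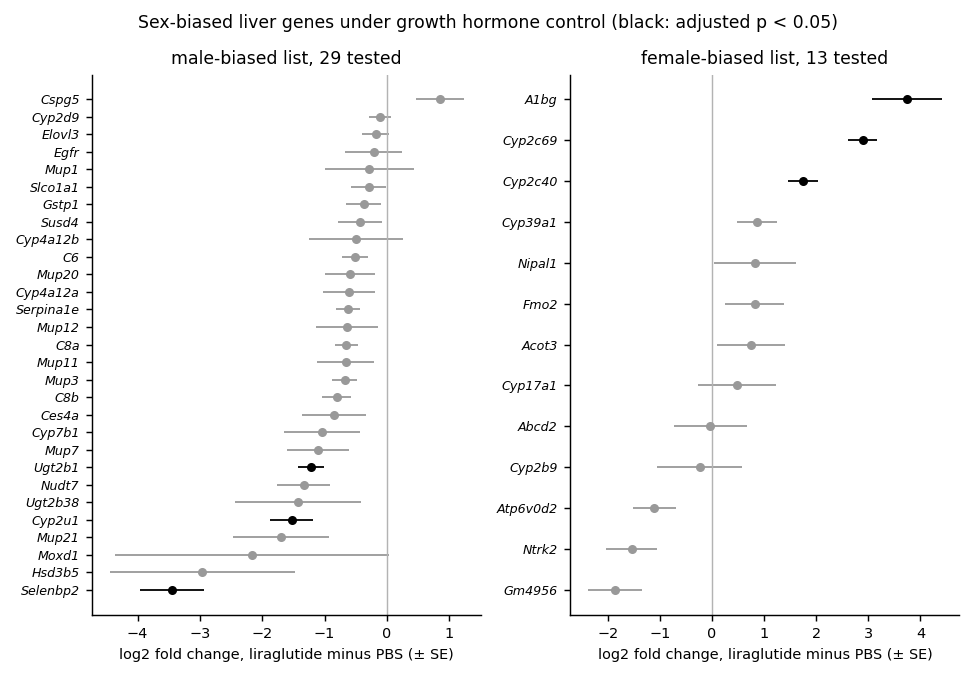
Log2 fold change, liraglutide minus PBS, with its SE for 29 male-biased and 13 female-biased liver genes that passed the low-count filter. Black genes are past an adjusted p of 0.05: Ugt2b1, Cyp2u1 and Selenbp2 on the negative side of the male-biased list and Cyp2c40, Cyp2c69 and A1bg on the positive side of the female-biased list.

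Of 26 female-biased genes 13 had too few counts to be tested, and of the other 13, 3 rose and none fell (3 lower at an unadjusted p below 0.05; 1 in DESeq2 and 0 in limma-voom), against 4.08% and 4.69% of all tested genes. Estimates were above 0 for 8 and below it for 5. Cyp2c69 and Cyp2c40, cytochrome P450 genes, rose from 0.6 to 0.9 CPM to a range of 4.4 to 6.7 (2.89 ± 0.28, edgeR adjusted p = 0.00258) and from 1.3 to 2.2 CPM to a range of 4.7 to 7.8 (1.75 ± 0.28, adjusted p = 0.0087). A1bg, a secreted plasma protein gene, rose from 5, 1 and 2 counts in PBS155, PBS157 and PBS158 to 57, 20 and 29 counts in Lira161, Lira162 and Lira164 (3.74 ± 0.67, adjusted p = 0.0121; 0.0567 without PBS158). These were low levels. A1bg reached the low-count filter only through the liraglutide group, where it is high, so its call is not independent of the filter. Cyp2c40, with 34 to 52 counts under PBS, and Cyp2c69, with 12 to 22, did not need that group to be tested. With 13 of the 26 genes untested, the count is no measure of the list. Requiring a mean of 5 CPM removed all 3 and left a count of 0. Cyp3a16, Cyp3a41a, Cyp3a41b and Cyp3a44 had 0 counts in all libraries, as did the globin pairs, and all have near-identical copies.

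GHR and PRLR belong to the class I cytokine receptors. Of 16 others tested, 2 rose and none fell (2 lower at an unadjusted p below 0.05 and in DESeq2, 1 in limma-voom), with a median log2 fold change of 0.30. The shares of all tested genes were 4.08% higher and 4.69% lower. Lepr, the leptin receptor gene, rose from 6.4, 9.8 and 3.9 CPM to 76.3, 269 and 104 (4.47 ± 0.69, edgeR adjusted p = 0.0246). Lira162, the lowest library for Ghr, was the highest for Lepr, but Lira161 was below Lira164 for both genes (Ghr 342 against 456 CPM). Csf2rb, the shared chain of receptors for myeloid growth factors, rose from a range of 4.3 to 8.0 to 9.6 to 13.1 CPM (0.90 ± 0.22, adjusted p = 0.0404). Lepr did not pass when Lira164 or any single PBS library was left out (highest adjusted p 0.0913) and Csf2rb without Lira161, Lira162, PBS157 or PBS158 (up to 0.130), and the count of 2 became 1 without Lira161, Lira162 or PBS155 and 0 without PBS157 or PBS158. Without Lira164, 2 receptor genes were lower.

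A list of 10 genes tied to fasting or to growth hormone resistance in it was written with earlier results of these data known. It set no direction in advance. Of these genes, 3 rose and none fell in edgeR (2 lower at an unadjusted p below 0.05, 1 lower in DESeq2 and 0 in limma-voom). The median log2 fold change was 0.11. The background over all tested genes was 4.08% higher and 4.69% lower. Fgf21, a fasting hormone known to blunt growth hormone signalling in mouse liver, was at 52.7, 60.9 and 32.7 CPM under liraglutide and 5.1, 7.1 and 4.8 under PBS (3.10 ± 0.27, edgeR adjusted p = 0.00309), and it passed in all 13 alternatives. Gadd45b, a stress gene, rose from a range of 1.1 to 3.8 to 8.7 to 22.4 CPM (2.76 ± 0.60, adjusted p = 0.0467; up to 0.157 with a library left out, and called among these fits only without PBS158). The third was Igfbp1, described above. The count was 1 without the low-count filter and without Lira161, Lira162, PBS155 or PBS157. Lira164, the liraglutide library nearest to the PBS libraries for Ghr, Igfals and Bcl6, was also the lowest liraglutide library for Fgf21, Igfbp1 and Gadd45b. Other genes did not keep this order. Among liraglutide libraries, Lepr was lowest in Lira161 (76.3 CPM, 104 in Lira164) and Igfbp2 in Lira162 (2019 CPM, 2062 in Lira164). Igf1 was nearest to the PBS libraries in Lira161 (574 CPM, 558 in Lira164), and Igfbp3 farthest from them in Lira164 (7.4 CPM). A link between these orders was not tested.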

How the data were processed

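The values are whole-number counts of reads by gene symbol, deposited by the authors without normalisation for 6 libraries in 1 table. Per the submitters' processing notes the aligner was STAR and the build mm10; for the counting tool, its annotation and the strand setting the sources used here give nothing. Columns name the group but no triplicate number, and were mapped to groups only. No pair of libraries within a group agreed within sampling noise (chi-square per degree of freedom 31.0 to 61.3).

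Counts filtered by filterByExpr were scaled by TMM and fitted with edgeR 4.0.16 (R 4.3.3; robust glmQLFit, glmQLFTest, two-sided) with group as the term, and p-values were adjusted over all genes by Benjamini-Hochberg at 0.05. The SE is the log2 fold change over the square root of F. Alternatives were other scalings, filters, DESeq2 1.42.0, limma 3.58.1 (voom) and each library left out. The fit was tried on counts simulated from edgeR's own model, which does not test how well that model suits these libraries. Positions and exon lengths come from GENCODE M21 (GRCm38, the assembly of mm10), which matched 23011 of 23412 symbols; a length is the union of all annotated exons.

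The 9 genes and the lists were chosen with earlier results of these data known. Genes named from a list are those past the threshold (at most 6, by smallest p), or the 2 with the smallest p where none passed; profile neighbours are the 3 nearest genes of a called member. Cux2, Hsd3b5 and Jak2 were added after their values were seen. One gene that this rule names is not reported here.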

Additional observations from a re-analysis of the deposited data

How the results depend on the processing

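No paired analysis was possible because the columns of the count table carry no triplicate number of the labels. The number of changed genes in the whole table ranged from 393 to 1496 with 1 library left out (462 without Lira161, 393 without Lira162, 653 without PBS157 and 414 without PBS158), and among the 9 genes from 0 to 3. DESeq2 called 3 of the 9 genes and 1632 in the whole table. With 1 library left out the log2 fold change of Ghr ranged from -1.18 to -0.76, of Igf1 from -0.62 to -0.37, of Igfals from -1.10 to -0.61, of Bcl6 from -2.05 to -0.82, of Prlr from -0.57 to 0.045, of Stat5a from -0.091 to 0.107, of Socs2 from -0.68 to 0.048 and of Cish from -0.82 to 0.022. In DESeq2, Igf1 (-0.47) and Igfals (-0.81) passed. Stat5a was 0.033 with library totals, a scaling that moved the median of all genes from 0.011 to 0.061. Socs2 changed sign in limma-voom (0.059), and the cause was not tested. Ghr passed under every scaling, filter and tool tried, and Cish was not tested under the filter at a mean CPM of 5. With 3 libraries a group, counts of 53 to 142 for Cish and the wide intervals of Socs2 and Bcl6 limit what could be detected in these genes.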
